A study of Homo sapiens with 4 samples.

Results

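The glucocorticoid receptor gene NR3C1 and 7 genes that the receptor is known to regulate, FKBP5, TSC22D3, PER1, DUSP1, SGK1, ZBTB16 and KLF9, were examined among 19962 coding genes in open-chromatin maps of MCF10A cells. The genes were chosen by name, and for each of them every peak within the gene body plus 100 kb on each side was taken. These windows held 168 of the 149858 open regions of both maps. The assay was ATAC-seq: a transposase inserts sequencing adapters where DNA is accessible. MCF10A cells are an immortalised, untransformed line of human breast epithelium, and all the cells carried a tet-inducible TAZ-4SA, a constitutively active form of the transcriptional co-activator TAZ. Cells of the No Dox group received no Dox, and cells of the Dox group received 0.05 µg/mL Dox for 72 h. Each group had 2 biological replicates, and a reaction used 50000 cells. The culture medium of both groups contained 0.5 µg/mL hydrocortisone, a glucocorticoid, so the ligand of the receptor was present throughout and no group without it was analysed here. The medium of both groups also held horse serum, EGF, cholera toxin and insulin.

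The glucocorticoid receptor rests in the cytoplasm in a complex with HSP90 and its co-chaperones. After binding a glucocorticoid it moves to the nucleus, where it binds as a dimer to glucocorticoid response elements (GREs), which are inverted repeats separated by 3 bases, or is held at DNA by other factors such as AP-1. Much of its binding falls in chromatin that is already open, and in epithelium the hormone supports survival, barrier formation and the damping of inflammatory signals. TAZ has no DNA-binding domain of its own and reaches DNA mainly through TEAD factors, often beside AP-1.

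The authors pooled the replicates of each group before peak calling, so that each group is 1 list of peaks, 84353 for Dox and 117740 for No Dox. Neither a replicate spread nor a p-value can therefore be given, the read depth behind the lists is unknown, and the 95% intervals below (Clopper-Pearson, exact) reflect counting error alone. The value of a peak is the authors' fold enrichment over background at its summit, and since the lists differ in scale and length, folds are read by their rank within a list. A region is Dox-only, No-Dox-only or shared by the lists in which it has a peak, and strong where a peak reaches its list's median fold, 4.07 for Dox and 3.81 for No Dox. Absence from a list says that no peak was called there, not that the DNA was closed. The labelled cell type was checked by promoter peaks at marker genes. Of 8 basal mammary epithelial genes 5 had a promoter peak in both lists, KRT6A and TP63 had one in Dox alone, and KRT14 in neither. Of 6 luminal genes 5 had one in both lists and PGR in No Dox alone. Over all coding genes 65.3% had one in both lists, so these counts do not tell basal from luminal cells. None of 5 immune and none of 4 endothelial genes had one in both lists, although PTPRC and ITGAM had one in No Dox alone and CD79A in Dox alone. Of 4 fibroblast genes, COL1A1 and PDGFRB had one in both lists, PDGFRA in Dox alone and DCN in No Dox alone, and the part of other cell states in the results was not tested.

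The sequences of the GREs that lay in open chromatin in the windows of these genes are shown first, because the results on the receptor's own element turn on them. A GRE was sought as GNACANNNTGTNC, which reads the same on both strands, and 12 of the 168 regions held it somewhere. That is 7.14% (3.75% to 12.1%), against 1.25% of all regions. The lines below give 101 bases of the hg38 plus strand, 5′ to 3′, around the GRE of 8 regions in order of their highest fold, with the GRE in capitals. The last line was added after its values were seen, because it is the only match of the stricter form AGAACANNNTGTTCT in the 168 regions. One match is 0.595% (0.0151% to 3.27%) of them, against 0.0200% of all regions.
KLF9, chr9:70420082-70420182: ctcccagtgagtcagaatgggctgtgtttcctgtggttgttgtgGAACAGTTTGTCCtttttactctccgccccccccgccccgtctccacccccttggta
ZBTB16, chr11:114162973-114163073: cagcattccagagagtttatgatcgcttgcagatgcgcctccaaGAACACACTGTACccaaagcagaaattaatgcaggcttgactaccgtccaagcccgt
ZBTB16, chr11:114179461-114179561: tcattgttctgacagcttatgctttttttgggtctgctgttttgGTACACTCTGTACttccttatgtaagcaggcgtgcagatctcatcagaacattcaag
ZBTB16, chr11:114160161-114160261: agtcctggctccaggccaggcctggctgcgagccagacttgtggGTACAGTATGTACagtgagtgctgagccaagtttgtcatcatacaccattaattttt
DUSP1, chr5:172869210-172869310: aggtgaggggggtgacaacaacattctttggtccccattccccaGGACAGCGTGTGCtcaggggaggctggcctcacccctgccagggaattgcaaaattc
FKBP5, chr6:35728070-35728170: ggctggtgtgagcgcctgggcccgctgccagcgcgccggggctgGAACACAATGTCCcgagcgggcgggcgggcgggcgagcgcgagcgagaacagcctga
PER1, chr17:8154417-8154517: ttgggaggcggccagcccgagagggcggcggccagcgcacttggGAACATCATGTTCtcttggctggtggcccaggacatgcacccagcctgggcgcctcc
TSC22D3, chrX:107674165-107674265: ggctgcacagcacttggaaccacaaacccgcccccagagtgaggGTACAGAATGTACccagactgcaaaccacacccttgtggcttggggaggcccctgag
FKBP5, chr6:35602039-35602139: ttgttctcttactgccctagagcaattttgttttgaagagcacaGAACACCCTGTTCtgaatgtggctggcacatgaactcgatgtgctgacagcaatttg

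In the 100 bp on each side of a region's strongest summit, a GRE was found in 6 of the 168 regions, or 3.57% (1.32% to 7.61%), against 643 of all 149858 regions, or 0.429% (0.397% to 0.463%). All 6 were shared regions, of 88 shared regions in the windows, or 6.82% (2.54% to 14.3%), against 0.535% of all shared regions. None was among the 41 Dox-only regions, which allows a share of up to 8.60%, or among the 39 No-Dox-only regions, which allows up to 9.03%. Every one of the 6 reached a fold of 8 in at least 1 list. Among regions with such a fold they were 6 of 41 in the windows, or 14.6% (5.57% to 29.2%), against 115 of 18400 genome-wide, or 0.625%. The 6 lay at KLF9, FKBP5, PER1 and ZBTB16, so 4 of the 8 genes had such a region in their window, against 6.40% of all coding genes. ZBTB16 alone held several of the 6, and the intervals take regions as independent, so they may be too narrow. The windows of these 4 genes held 7 to 39 regions each. A sequence match is not a measure of receptor binding, and the genes were chosen as known targets.

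**Figure D1:**
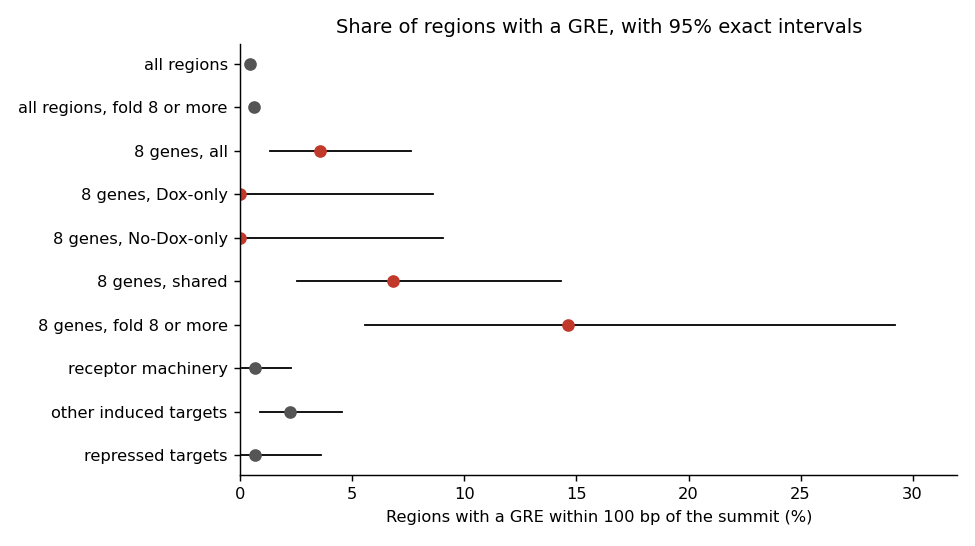
Percent of regions with a GRE within 100 bp of the summit (points) with exact 95% intervals (lines), for all regions, for the windows of the 8 genes and for the windows of 3 lists of genes of the same pathway. Shared regions at the 8 genes stand at 6.82%, all regions at 0.429%, and the condition-only regions of the 8 genes at 0.

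The GRE region of the highest fold was that of KLF9, a zinc-finger repressor of proliferation that glucocorticoids induce in many tissues. It lay 5.40 kb upstream of the TSS, at chr9:70418166-70421281, with a fold of 20.8 in Dox and 27.8 in No Dox, which stood at percentiles 98.7 and 99.4 of the lists. Its GRE was 85 bp from the Dox summit and 79 bp from the No Dox summit. The region was thus near the top of both lists, and a site of AP-1 (TGAGTCA) was also present near its summit.

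ZBTB16, a transcription factor and one of the genes most responsive to glucocorticoids in many cell types, had 3 GRE regions deep in the gene. The first, at chr11:114158637-114160606 and 101 kb into the gene, had folds of 13.1 in Dox and 12.9 in No Dox, with the GRE 3 bp from the Dox summit and 4 bp from the No Dox summit. The second, at chr11:114162461-114164320, had folds of 10.9 and 17.4, with a GRE 34 bp and 6 bp from the summits and another GRE 1067 bp and 1095 bp away. The third, at chr11:114178781-114180889 and 120 kb into the gene, had folds of 8.36 and 16.9. Among shared regions ranked by fold in each list, the rank of the first differed by 3.06 points between Dox and No Dox, that of the second by -7.88 points and that of the third by -17.3 points (Dox minus No Dox). The first and the third lie within 1 kb of internal TSSs that GENCODE annotates.

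FKBP5 encodes a co-chaperone that lowers the hormone affinity of the receptor and is itself induced by it. Its GRE region, at chr6:35727134-35729529, covers the most upstream TSS, 39.1 kb before the canonical TSS, and had folds of 9.72 in Dox and 9.53 in No Dox. The GRE was 41 bp from the Dox summit and 61 bp from the No Dox summit. PER1 encodes a core component of the circadian clock, and its GRE region at chr17:8153681-8154939, 2.03 kb upstream of the canonical TSS and inside an intron of longer transcripts, had folds of 5.65 in Dox and 8.05 in No Dox. Its rank among shared regions differed by -16.9 points, and the GRE was 71 bp and 35 bp from the summits. All 6 regions were thus called in both conditions, and rank differences for none of them reached 20 points. Of all shared regions only 15.1% ranked at least 20 points lower in Dox and 15.3% at least 20 points higher. With 6 regions, the absence of such differences does not set them apart from other shared regions.

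Away from the summits, the strict GRE of FKBP5 stood in an intron 86.5 kb from the canonical TSS, in a region at chr6:35601487-35602572 that was called in No Dox alone with a fold of 5.51, percentile 76.6 of that list, and lay 319 bp from its summit. A GRE in the TSC22D3 window at chrX:107673026-107674885 was 3 bp from the Dox summit and 138 bp from the stronger No Dox summit, with folds of 6.33 and 7.63. That region lies downstream of the gene, and its nearest coding gene is PRPS1, not TSC22D3. In the DUSP1 window the GRE at chr5:172868592-172871156 was 95 bp from the Dox summit and crossed the edge of the 100 bp searched, with folds of 10.9 and 7.41. Its nearest coding gene is ERGIC1, not DUSP1. The other regions with a GRE elsewhere were in the windows of FKBP5, TSC22D3 and KLF9, 1 in each. None of the 12 regions was Dox-only, a class that made up 24.4% of the 168 regions.

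Over the 8 windows, 41 regions were Dox-only, 39 No-Dox-only and 88 shared. Shared regions made up 52.4% (44.5% to 60.1%) of those in the windows, against 32.4% of all regions. Dox-only regions were 24.4% (18.1% to 31.6%) against 22.3% of all regions, near the background, and No-Dox-only regions were 23.2% (17.1% to 30.3%) against 45.3%. The windows were rich in strong regions, 118 of 168 against 72899 of 149858, and among strong regions the gaps were smaller. There 70.3% (61.2% to 78.4%) were shared against 59.0%, and 19.5% (12.8% to 27.8%) No-Dox-only against 27.4%, just inside that interval. Of the condition-only regions, 51.2% (39.8% to 62.6%) were Dox-only, against 33.0% genome-wide. Among strong regions the figure was 12 of 35, or 34.3% (19.1% to 52.2%), against 33.1%. That share was near the background, but its interval also holds 51.2%, so the count can neither show nor exclude an excess among strong regions. Within the gene bodies alone, 9 were Dox-only and 17 No-Dox-only, or 34.6% Dox-only.

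**Figure D2:**
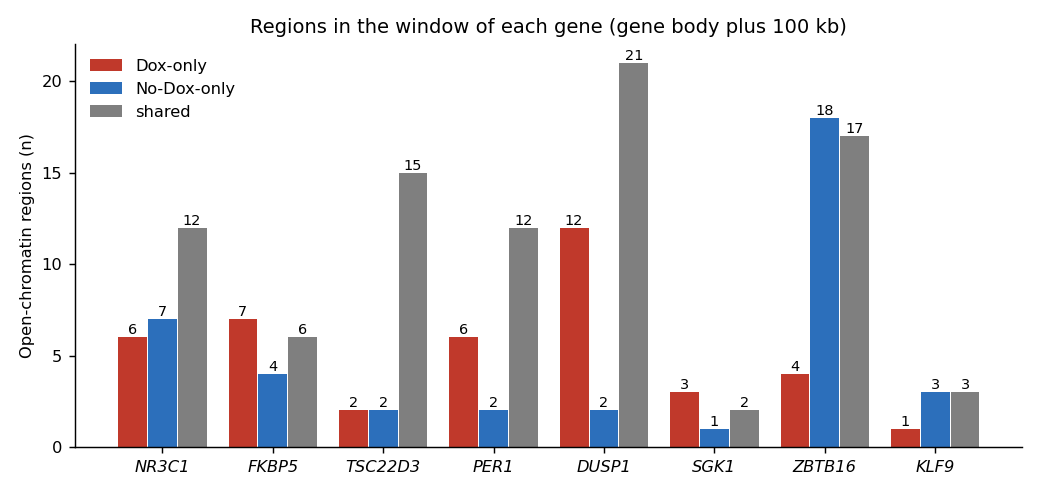
Regions in the window of each gene, counted by class (red, Dox-only, blue, No-Dox-only, grey, shared). DUSP1 has 12 regions of Dox alone and 2 of No Dox alone, and ZBTB16 has 4 and 18.

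The genes differed in direction. More Dox-only than No-Dox-only regions were found at FKBP5 (7 and 4), PER1 (6 and 2), DUSP1 (12 and 2) and SGK1 (3 and 1), which makes 4 of 8, against 49.4% of all coding genes. Fewer were found at NR3C1 (6 and 7), ZBTB16 (4 and 18) and KLF9 (1 and 3), and TSC22D3 had 2 of each. The surrounding 5 Mb on each side give the local level. At NR3C1 24% of regions were Dox-only against 25.1% locally, and 28% No-Dox-only against 45.5%. At FKBP5 the Dox-only share was 41.2% against 42.8%, and the No-Dox-only share 23.5% against 10.2%. At TSC22D3 the shares were 10.5% Dox-only against 18% and 10.5% No-Dox-only against 50.2%. At 7 genes the No-Dox-only share was thus below the local one, and FKBP5 was the exception. At PER1 30% were Dox-only against 26.5%, and 10% No-Dox-only against 33%. At DUSP1 34.3% were Dox-only against 25.1%, and 5.71% No-Dox-only against 47.6%. At SGK1, with 6 regions in all, 50% were Dox-only against 22%, and 16.7% No-Dox-only against 37.4%. For ZBTB16 and KLF9 both shares lay below the local ones. ZBTB16 had 10.3% Dox-only against 20.3% and 46.2% No-Dox-only against 51%, and KLF9 had 14.3% against 15.9% and 42.9% against 50.4%. Dox peaks covered 29.7 kb of the DUSP1 window and No Dox peaks 23 kb, whereas at ZBTB16 they covered 18.7 kb and 31.0 kb. At SGK1 they covered 3.17 kb and 1.70 kb, at FKBP5 12.2 kb and 8.69 kb, and at PER1 13.8 kb and 13.3 kb. At NR3C1 they covered 14.4 kb and 15.8 kb, at TSC22D3 10.1 kb and 11.8 kb, and at KLF9 7.39 kb and 8.66 kb. Among the 88 shared regions, 12, or 13.6%, ranked at least 20 points lower in Dox, against 15.1% of all shared regions, and 14, or 15.9%, ranked at least 20 points higher, against 15.3%. Both shares were near the background.

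**Figure D3:**
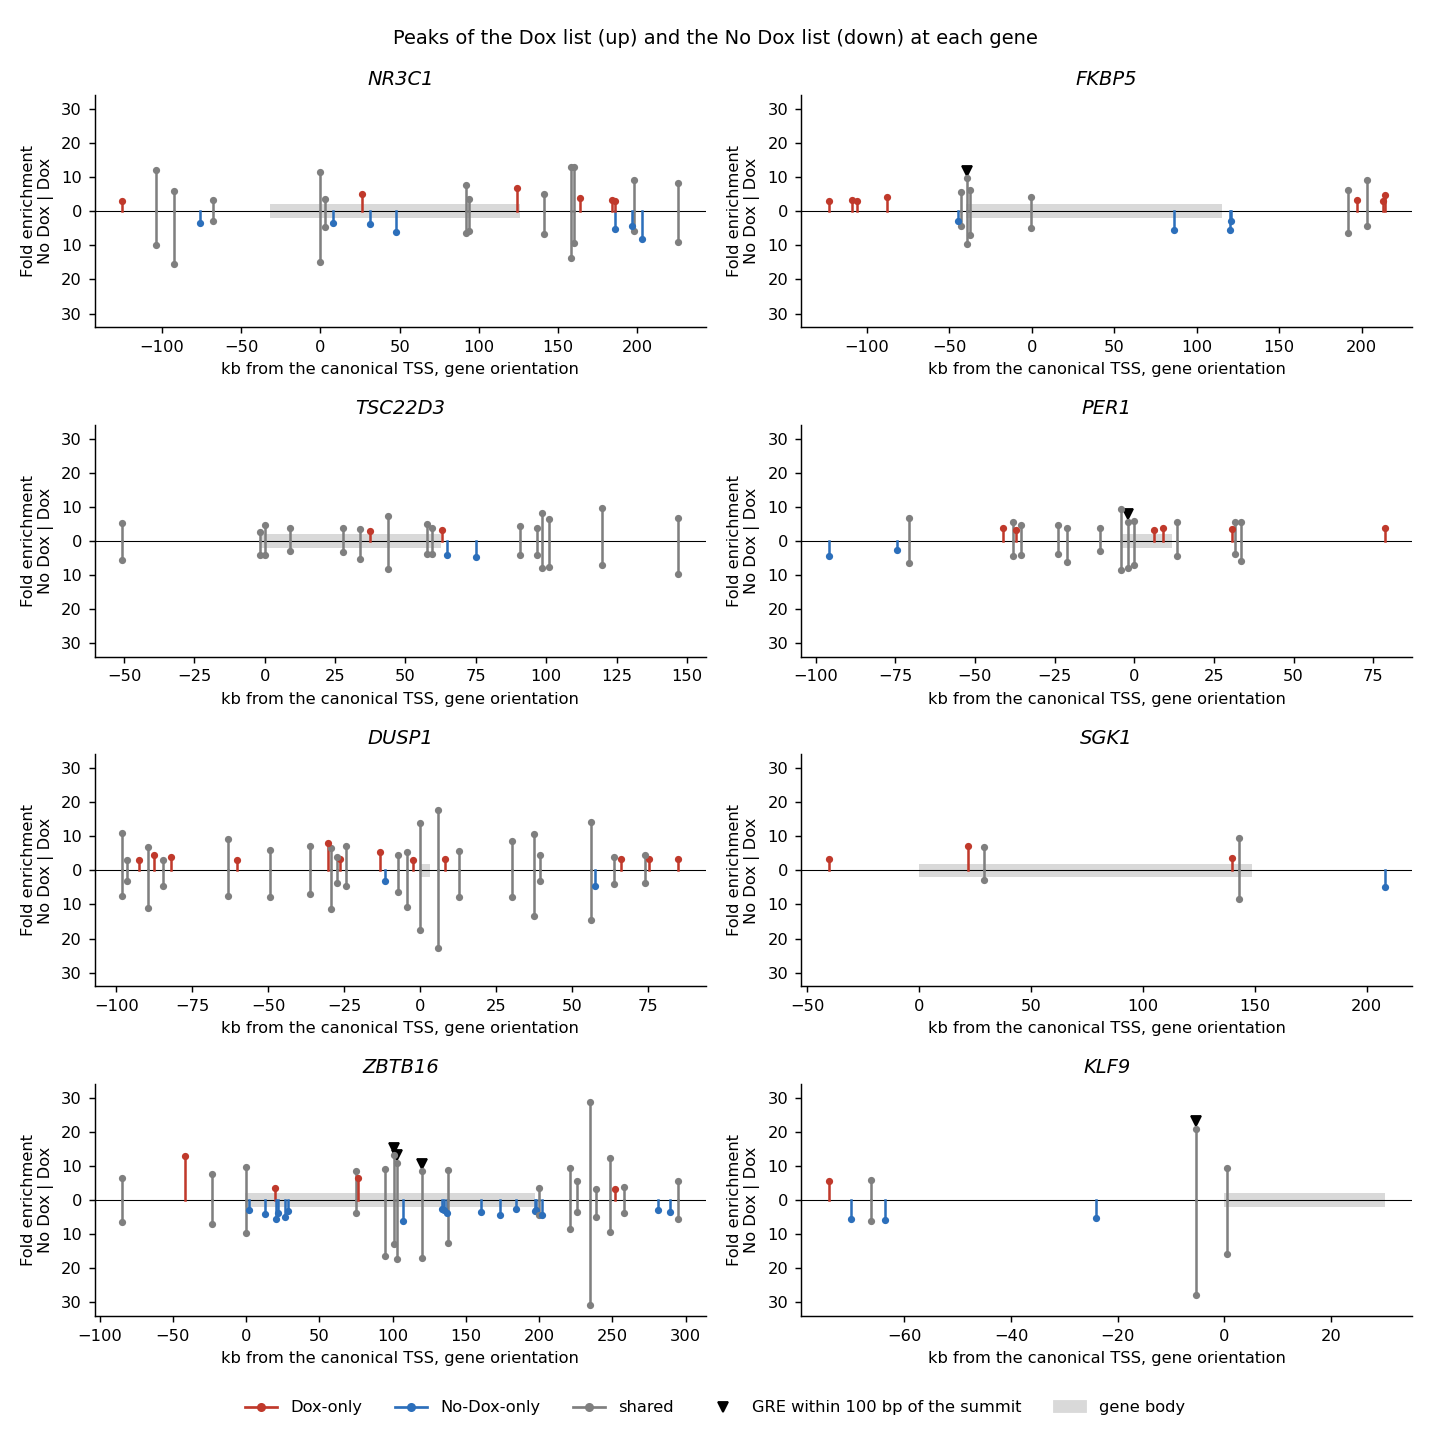
Fold enrichment of each region's peak in the Dox list (up) and the No Dox list (down) against the distance in kb from the canonical TSS, in gene orientation, with 1 panel per gene, grey bars for gene bodies and triangles for a GRE within 100 bp of the summit. The 6 marked regions have peaks in both directions. The 18 No-Dox-only regions at ZBTB16 are 46.2% of its regions, near the 45.3% of all regions.

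All 8 genes had a promoter peak in both lists, that is, 1 kb or less from an annotated TSS. Over all coding genes 65.3% had one in both, 5.85% in Dox alone, 3.92% in No Dox alone and 24.9% in neither. The fold at the main promoter of DUSP1, a phosphatase that switches off MAP kinases, was 14.0 in Dox and 17.6 in No Dox. That of KLF9 was 9.49 and 15.9, and that of the ZBTB16 canonical TSS 9.72 and 9.74. By rank among shared regions, the promoters of DUSP1, KLF9 and ZBTB16 differed by -1.47, -11.0 and 2.83 points (Dox minus No Dox). TSC22D3, also called GILZ, a mediator of the anti-inflammatory action of glucocorticoids, had promoter peaks with folds of 4.75 in Dox and 4.24 in No Dox at the canonical TSS. Its other promoter peaks had folds of 2.71 and 4.24, and of 3.62 and 3.81. The canonical promoter of FKBP5 had folds of 4.29 in Dox and 4.87 in No Dox. These canonical promoters lay above the medians of their lists.

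Promoter peaks called in 1 condition alone occurred only at secondary TSSs of these genes. PER1 had Dox-only peaks at 2 internal TSSs, with folds of 3.84 and 3.16, beside shared promoter peaks of 9.27 in Dox and 8.47 in No Dox and of 5.88 and 6.99. SGK1 had a Dox-only peak of fold 3.62 and ZBTB16 a No-Dox-only peak of fold 2.97. All 4 were below the median of their list.

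**Figure D4:**
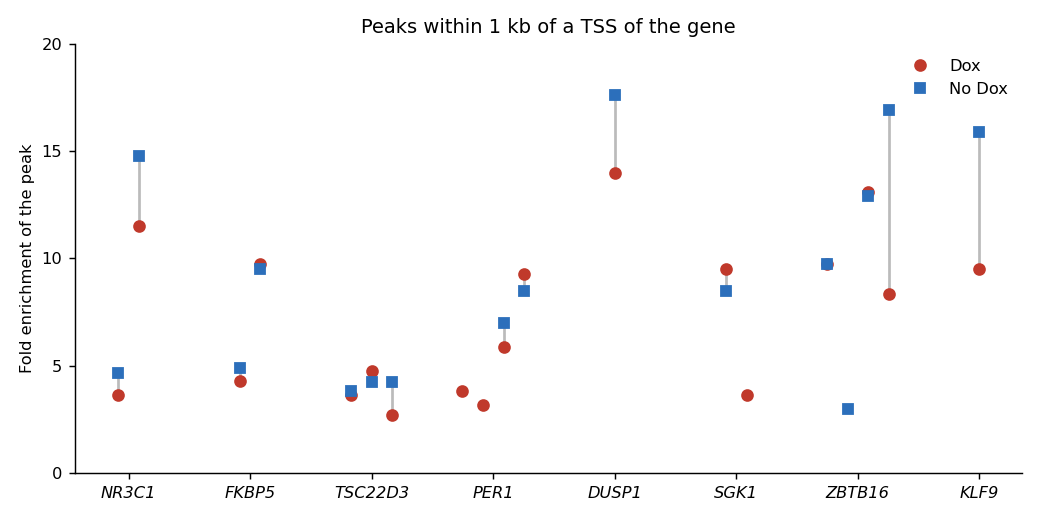
Fold enrichment of every peak within 1 kb of a TSS of the gene, Dox as circles and No Dox as squares, with a grey line joining the peaks of a shared region. The single symbols, at PER1, SGK1 and ZBTB16, are the condition-only promoter peaks, all with folds under 4.07.

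NR3C1, the receptor itself, had open main promoters in both conditions. The region over the canonical TSS, at chr5:143402531-143405712, had folds of 11.5 in Dox and 14.8 in No Dox, and its rank among shared regions differed by -3.31 points. A weaker promoter region 2.92 kb inside the gene had folds of 3.62 and 4.66. The region of the highest No Dox fold in the window lay 92.2 kb upstream, at chr5:143494121-143496443, with a fold of 15.5 in No Dox and 5.88 in Dox, and its rank difference was -34.6 points. A neighbour 104 kb upstream had folds of 12.0 in Dox and 9.96 in No Dox, so the difference did not extend to that region. On the side nearer the gene, a region 75.9 kb upstream was No-Dox-only, with a fold of 3.39, below the median of its list. Inside the gene, strong condition-only regions nearest to NR3C1 were No-Dox-only at folds of 5.93 and 3.81, 47.7 kb and 31.3 kb from the TSS, and Dox-only at 5.20, 26.3 kb from it. The Dox-only region of the highest fold in the window, 6.78, lay in an exon 124 kb from the TSS. The No-Dox-only one, 8.26, lay 203 kb from it, nearest to ARHGAP26. The coding genes whose region counts were most like those of NR3C1 (6 Dox-only, 7 No-Dox-only and 12 shared), by Euclidean distance over the 3 counts among 13032 genes with the same promoter state, were PCSK6, DPT and FOXN3, each at a distance of 1.

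SGK1, a kinase that promotes survival and sodium transport, had only 6 regions, and the canonical TSS had no peak within 20 kb. The shared promoter region 143 kb into the annotated gene, at chr6:134174386-134175871, had folds of 9.49 in Dox and 8.47 in No Dox. The intronic region at chr6:134288558-134289178 had folds of 6.78 in Dox and 2.75 in No Dox, and its rank of 64.7 points higher in Dox was the greatest difference among the 88 shared regions. A Dox-only region 21.9 kb from the canonical TSS, at chr6:134295939-134296510, had a fold of 7.23, percentile 80.9, and both a TEAD site and an AP-1 site near its summit. The sole No-Dox-only region had a fold of 4.87, 208 kb from the TSS and nearest to SLC2A12.

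ZBTB16 had both the most No-Dox-only regions of the 8 genes and the Dox-only region of the highest fold. Its window held 39 regions, and the 18 that were No-Dox-only made up 46.2% of them, near the 45.3% of all regions. Of the 18, 13 were nearest to ZBTB16, with folds of at most 6.14, percentile 80.5. Strong ones among them ranged from 3.81 to 6.14. The Dox-only region at chr11:114017642-114018243, 41.8 kb upstream and nearest to HTR3A, had a fold of 12.9, percentile 94.6, above the other Dox-only regions of the 8 windows. An intronic pair stood 75.3 kb and 76.4 kb into the gene. The first, at chr11:114134692-114135517, was shared with folds of 8.36 in Dox and 3.81 in No Dox and ranked 54.7 points higher in Dox, and the second, at chr11:114135889-114136391, was Dox-only with a fold of 6.33. The region of the highest fold in the window, 28.7 in Dox and 30.7 in No Dox, lay 235 kb away and nearest to NNMT.

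Sites of TEAD (ACATTCC or GCATTCC, on either strand) lay near the summit of 4 of the 41 Dox-only regions, 4 of the 39 No-Dox-only regions and 9 of the 88 shared regions, or 9.76% (2.72% to 23.1%), 10.3% (2.87% to 24.2%) and 10.2% (4.78% to 18.5%). Genome-wide such sites were near 13.6% of the summits of the Dox-only class, 5.72% of the No-Dox-only class and 9.84% of the shared class. The counts at the 8 genes are too small to show or exclude a difference of that size. The 3 strong Dox-only regions with such a site are shown on the hg38 plus strand with the site in capitals, because TEAD factors are what brings TAZ to DNA. They were chosen after their values were seen, and the 4 No-Dox-only regions with a site are not shown. Of the 12 strong Dox-only regions at the 8 genes they are 3, near the 26.3% of strong Dox-only regions genome-wide.
ZBTB16, chr11:114017928-114018022: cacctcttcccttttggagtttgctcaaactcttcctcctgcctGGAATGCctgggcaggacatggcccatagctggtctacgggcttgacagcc
ZBTB16, chr11:114136026-114136120: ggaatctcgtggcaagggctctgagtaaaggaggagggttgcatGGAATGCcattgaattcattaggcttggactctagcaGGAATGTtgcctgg
SGK1, chr6:134296160-134296254: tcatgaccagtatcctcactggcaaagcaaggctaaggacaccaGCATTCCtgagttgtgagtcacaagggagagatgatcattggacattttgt
The first and the second belong to ZBTB16, at 48 bp from the summit and at 20 bp and 17 bp from it, and the third to SGK1, at 40 bp. AP-1 sites lay near the summit of 10 of 39 No-Dox-only regions, or 25.6% (13% to 42.1%), of 5 of 41 Dox-only regions, or 12.2% (4.08% to 26.2%), and of 10 of 88 shared regions, or 11.4% (5.59% to 19.9%). Genome-wide the shares were 11.7% of No-Dox-only, 8.12% of Dox-only and 18.5% of shared regions. For the No-Dox-only share at the 8 genes, the genome-wide value of the class lay just below the interval. The other shares had the genome-wide value of their class inside their interval. Strength differed, however: 23 of the 39 No-Dox-only regions here were strong, against 20008 of 67861 genome-wide. Among strong No-Dox-only regions genome-wide 22.4% had an AP-1 site, against 7.74% of No-Dox-only regions with a fold under 4. The AP-1 sites at the 8 genes fell in both strong and weaker No-Dox-only regions. The interval covers both kinds together, so it cannot show or exclude an excess over regions of like strength.

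DUSP1 had the densest window, with 35 regions and 21 of them shared. The shared region of the highest fold, at chr5:172764769-172769858 and 5.81 kb downstream of the TSS, had folds of 17.6 in Dox and 22.9 in No Dox. Of its strong Dox-only regions 2 were nearest to DUSP1, with folds of 8.14, 30.3 kb upstream, and 5.43, 13.1 kb upstream. The sole strong No-Dox-only region had a fold of 4.66, 57.7 kb downstream. Shared regions differed in either direction. The one 4.49 kb upstream had folds of 5.43 in Dox and 10.8 in No Dox, a rank difference of -31.0 points. One 24.4 kb upstream had folds of 7.01 and 4.45, a difference of 33.0 points, so differences in both directions stood within the same upstream stretch.

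All 4 condition-only regions in the KLF9 window were strong and nearest to KLF9. The No-Dox-only regions 24.1 kb, 63.6 kb and 70.0 kb upstream had folds of 5.30, 5.93 and 5.51, and a Dox-only region 74.2 kb upstream had a fold of 5.65. At FKBP5 none of the 7 Dox-only regions was nearest to the gene, and the highest of them had a fold of 4.75. In the FKBP5 window a region nearest to TEAD3 had folds of 9.27 in Dox and 4.24 in No Dox and ranked 50 points higher in Dox. At TSC22D3 the No-Dox-only regions had folds of 4.66 and 4.02, 75.1 kb and 64.6 kb from the canonical TSS, and the Dox-only regions 3.16 and 2.94. Shared regions were 78.9% of the TSC22D3 window, the highest share of the 8. The shared region of the highest fold there, at chrX:107628225-107629082, had folds of 6.56 in Dox and 9.74 in No Dox and was nearest to PRPS1. At PER1 no Dox-only region was strong, and the highest fold was 3.84. The No-Dox-only peak of the highest fold there, 4.45, lay nearest to CTC1.

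**Figure D5:**
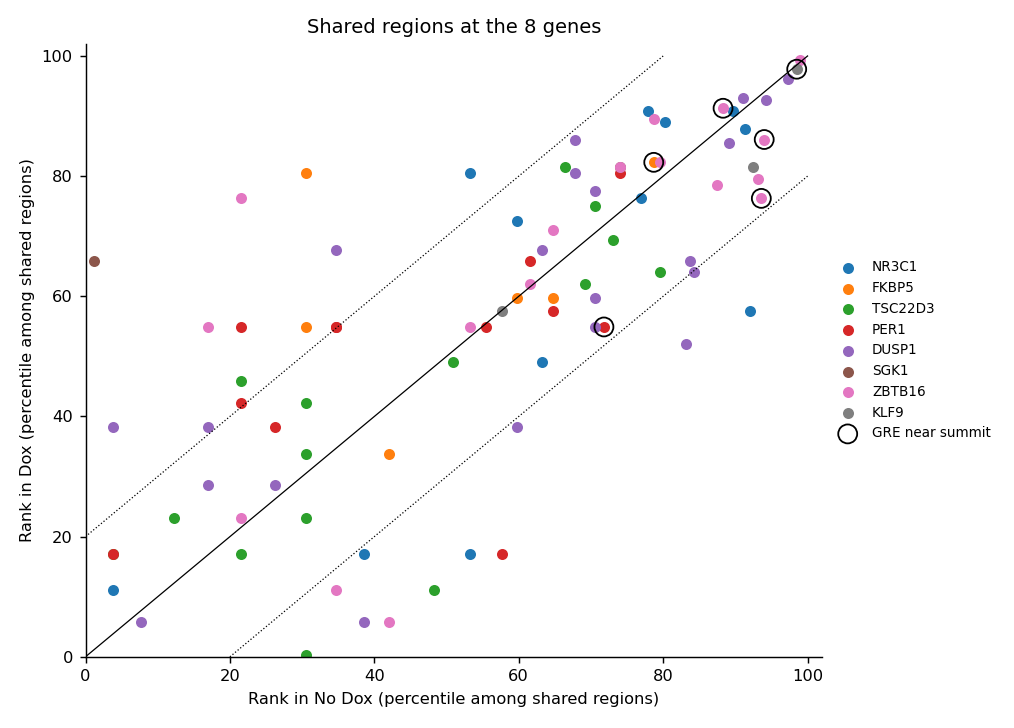
Rank of each of the 88 shared regions in Dox against its rank in No Dox, as percentiles by fold among all shared regions, coloured by gene, with circles around regions with a GRE near the summit. The solid line marks equal ranks and the dotted lines 20 points of difference, between which all 6 GRE regions lie, as do most of the 88. Some points coincide, and the SGK1 region at 64.7 points stands farthest above.

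The other genes of the pathway were taken as 3 lists. Receptor machinery, meaning the mineralocorticoid receptor, cortisol-converting enzymes, chaperones and coregulators, had a promoter peak in both lists at 18 of 20 genes and in Dox alone at HSD11B1, which regenerates cortisol from cortisone, and MED1, a Mediator subunit that binds nuclear receptors. Condition-only regions in their windows divided into 106 of Dox and 64 of No Dox, and the strong ones into 31 and 24. The Dox-only share was 62.4% (54.6% to 69.7%) against 33.0% genome-wide, a value over all regions and not over gene windows. By gene, Dox-only regions were the more numerous at 14 of 20 and No-Dox-only regions at 4, whereas 49.4% of all coding genes had more Dox-only regions. At HSD11B1 there were 20 regions of Dox alone and 26 of No Dox alone, at NR3C2, the mineralocorticoid receptor, 4 and 12, and at the chaperone HSPA4 10 and 6. Windows of marker genes were also uneven. The Dox-only share of their condition-only regions was 84.9% for the fibroblast genes (62 and 11), 71% for the basal genes (66 and 27) and 27.9% for the luminal genes (17 and 44), and 44.9% and 43.8% for the immune and endothelial genes. Single genes weighed heavily, with 50 and 8 at PDGFRB, 0 and 19 at PGR and 4 and 14 at ESR1. Dox-only regions were the more numerous at 3 of 4 fibroblast, 7 of 8 basal and 2 of 6 luminal genes. DCN (1 and 3), KRT8 (8 and 4) and KRT18 (7 and 4) went against their lists. The part of these shifts in the shares of the pathway lists was not tested. A GRE lay near the summit in 2 of 314 regions, or 0.637% (0.0772% to 2.28%).

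Other induced targets had a promoter peak in both lists at 22 of 25 genes, with GADD45B, a stress sensor, in Dox alone, PCK1, the gluconeogenic enzyme, in No Dox alone, and TAT, a liver enzyme, in neither. Condition-only regions in their windows divided into 93 of Dox and 79 of No Dox, 54.1% Dox-only (46.3% to 61.7%), and the strong ones into 36 and 40. RGS2, which dampens G-protein signals, had 4 of Dox and 19 of No Dox, GLUL, glutamine synthetase, 12 and 6, CDKN1C, a cell cycle inhibitor, 16 and 1, and SCNN1A, an epithelial sodium channel subunit, 7 and 5. GADD45B had 10 Dox-only regions, 6 of them strong, and no No-Dox-only region. A GRE lay near the summit in 7 of 315 regions, or 2.22% (0.898% to 4.52%). This share stood above the 0.429% of all regions and below the 3.57% of the 8 genes, whose interval it overlaps.

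Targets that glucocorticoids repress had a promoter peak in both lists at 8 of 12 genes and in neither at MMP1, MMP9, LIF and TNF. Condition-only regions in their windows divided into 40 and 40, and the strong ones into 13 of Dox and 16 of No Dox. PTGS2, the inducible cyclooxygenase, had 6 of Dox and 19 of No Dox, IL11 4 and 5, LIF 8 and 1, and TNF 7 and 1. A GRE lay near the summit in 1 of 152 regions, or 0.658% (0.0167% to 3.61%).

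Genome-wide, a GRE lay near the summit in 0.699% (0.544% to 0.883%) of strong Dox-only regions, 0.400% (0.317% to 0.497%) of strong No-Dox-only regions and 0.537% (0.470% to 0.611%) of strong shared regions. At folds of 8 or more the order of the condition-only classes turned, with 2 of 760 Dox-only regions, or 0.263% (0.0319% to 0.947%), and 10 of 735 No-Dox-only regions, or 1.36% (0.654% to 2.49%).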

How the data were processed

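ATAC-seq of 4 samples, No Dox and Dox with 2 biological replicates each, was taken from 1 pooled peak list per group. The authors aligned reads to hg38 with BWA and ran MACS2 on the pooled replicates (FDR 0.05). Fold enrichment at the summit is the authors' ratio of signal to background, and the −log10 q-value was deposited with it. Read depth is unknown from these lists.
Overlapping or touching peaks were merged into regions (autosomes and X). Genes and TSSs came from GENCODE release 44, and sequence from hg38. Motifs were sought on both strands in 100 bp each side of 1 summit per region, that of the peak with the higher percentile in its list. Every region at a promoter, with a GRE near the summit, of the highest fold in its class, or strong, condition-only and nearest to the gene was described. The strong No-Dox-only regions of ZBTB16 were given as a range, and some regions with a GRE elsewhere were only counted. Of the pathway lists, each gene with a promoter peak in 1 condition alone and up to 4 genes with the most condition-only regions were named. For 1 gene of a pathway list no values are given. The genes and lists were chosen with earlier results of these data known. No p-value was computed. Steps were tested on simulated data. Tools were matplotlib 3.10.9, scipy 1.17.1, pandas 2.3.3, numpy 2.4.6 and Python 3.11.15.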

Additional observations from a re-analysis of the deposited data

How the results depend on the processing

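Of 72 alternatives, 43 left a value within 1.5 times a count or within the interval of a share, and all 8 genes had a promoter peak in both lists under every alternative run. The Dox-only, No-Dox-only and shared counts of 41, 39 and 88 became 12 and 23 for strong regions (Dox-only percent 34.3), 14 Dox-only and 42 shared within 20 kb of the gene bodies (35.0%), 9, 17 and 30 within the gene bodies (34.6%), and 17, 25 and 50 for regions nearest to the genes. At a q-value of 1e-05, 21 were Dox-only. With both lists cut to equal length the Dox-only percent was 62.3. Without the DUSP1 window, an alternative chosen after seeing the data, the Dox-only percent was 43.9. The 6 regions with a GRE near the summit became 3 within 50 bp, 12 over the whole region and 0 with the strict GRE. The genome-wide GRE percentages of strong regions (Dox-only, No-Dox-only, then shared) became 0.344, 0.195 and 0.274 within 50 bp, 1.30, 1.13 and 2.27 over the whole region, and 0.0101, 0.010 and 0.0139 with the strict GRE. Over all Dox-only regions the percentage was 0.443, and at folds of at least 8 Dox-only regions had 0.263 and No-Dox-only regions 1.36, which turned their order. The window and motif alternatives change the length of DNA or the letters searched, and the cause of the other changes was not tested. No paired analysis was possible because the replicates were pooled before peak calling, and for the same reason no replicate could be left out. Calls of weak peaks depend on depth, which is unknown here.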
